A study of Mus musculus with 16 samples.

Results

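Genes of sterol and fatty acid synthesis were followed in the spinal cord of mice that carry human profilin1. The 32 genes came from a list of gene symbols for cholesterol synthesis, fatty acid synthesis and their control, and all 32 were found among the 18167 genes of the expression table. By textbook function, 21 of them were placed in a cholesterol arm and 11 in a fatty acid arm.

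Cholesterol is built from acetyl-CoA through mevalonate, isoprenoid units, squalene and lanosterol, and the nervous system makes nearly all of its own, since plasma lipoproteins do not cross the blood-brain barrier. Most of it is held in myelin, where oligodendrocytes lay it down during development. Fatty acids are built from the same acetyl-CoA by acetyl-CoA carboxylase and fatty acid synthase, then elongated and desaturated, and both arms are transcribed under the SREBP factors, of which the *Srebf2* product is best known for sterol genes and the *Srebf1* product for fatty acid genes.

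The study sequenced spinal cord mRNA of 16 mice, 1 library per mouse, to compare mice before symptoms with mice at the end stage of motor neuron disease, when mutant mice can no longer right themselves. Mutant mice carry human profilin1 with the G118V substitution on a C57BL/6N background (transgene Tg(Prnp-PFN1*G118V)838Kiaei), and the controls carry wild-type human profilin1 on the same background (transgene Tg(Prnp-PFN1)850Kiaei), in both cases under the *Prnp* promoter. The groups were WY (control, 50 days old, 3 mice), MY (mutant, 50 days, 3 mice), WO (control, 190 to 294 days, 5 mice) and MO (mutant, 175 to 245 days, 5 mice), with no mice that lack a transgene. Batch 1 held mice 1 to 3 of every group and batch 2 held WO4, WO5, MO4 and MO5, of which WO4 and WO5 were 294 days old. Every mouse is labelled male, but in MO5 *Xist* reached a log2 value of 3.21, where no other mouse exceeded 0.37, and *Ddx3y* of the Y chromosome was only 1.95, where no other mouse was under 4.06. Levels are log2(1 + FPKM) after the authors' batch correction, a scale on which genes can be compared with each other per transcript length. The deposited files give no counts, so the number of reads behind a gene's value is unknown and its precision rests on how far mice of a group differ.

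Each pair of groups was compared with limma over all 18167 genes, as second group minus first group, and a gene was said to rise or fall, by a difference in log2, when its Benjamini-Hochberg FDR was at or below 0.05. The comparison of MY with MO follows mutant mice from before symptoms to the end stage, WO with MO sets the end stage against old controls, WY with WO follows the controls in age, and WY with MY sets the genotypes side by side before symptoms. MY vs. MO and WO vs. MO share the MO mice. In whole cord, fewer cells of a type and less RNA per cell cannot be told apart. Whether the change with age differed between genotypes was tested as (MO - MY) - (WO - WY) in 1 fit of 16 mice.

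Along the mevalonate pathway, *Hmgcs1*, *Idi1* and *Fdps* were highest in young mice of both genotypes, lower in old controls and lowest in most end-stage mice. *Hmgcs1* encodes the synthase that makes HMG-CoA, and its level was 7.96, 8.05 and 8.04 in WY1 to WY3, 7.95, 7.86 and 7.77 in MY1 to MY3, 6.70, 6.79, 6.86, 7.38 and 7.36 in WO1 to WO5, and 5.91, 6.12, 6.12, 7.12 and 6.48 in MO1 to MO5. The 6 young mice lay above the 10 old mice, and MO1, MO2, MO3 and MO5 lay below every WO mouse, whereas MO4 lay above WO1, WO2 and WO3. *Hmgcs1* fell from MY to MO with a log2 fold change of -1.51 (2.85-fold, SE 0.244, FDR 0.0031), the largest decrease among the 32 genes. From WY to WO it fell by 0.998 (FDR 0.0412), a call that was lost without WO1, WO2, WO3, WY1, WY2 and WY3 in turn (FDR up to 0.151). Between WO and MO its log2 fold change of -0.67 missed the threshold (FDR 0.0507), but passed, among other settings, with batch as a term (FDR 0.0015) and in batch 1 only (FDR 0.00237).

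*Idi1* encodes the isomerase that interconverts the isoprenoid units, and it was measured at 6.14, 6.06 and 5.92 in MY1 to MY3, 4.48, 4.80, 4.63, 5.60 and 4.93 in MO1 to MO5, 5.36, 5.49, 5.52, 5.67 and 5.64 in WO1 to WO5, and 6.10, 6.15 and 6.14 in WY1 to WY3. Again all young mice were above all old mice, and 4 MO mice were below every WO mouse, while MO4 lay inside the WO range. *Idi1* fell from MY to MO by 1.15 (SE 0.224, FDR 0.00699) and from WO to MO by 0.65 (FDR 0.0204), the latter not without MO3 (FDR 0.0508). It also fell with age in controls, by 0.59 (FDR 0.0132), with an FDR of up to 0.0811 when 1 of WY1, WY2 and WY3 was left out.

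*Fdps*, whose product makes farnesyl diphosphate, stood at 5.44, 5.75, 5.69, 6.31 and 5.94 in MO1 to MO5, 6.12, 6.09, 6.17, 6.40 and 6.41 in WO1 to WO5, 6.58, 6.50 and 6.49 in MY1 to MY3, and 6.80, 6.60 and 6.69 in WY1 to WY3. No old mouse reached a young one, and MO4 alone among the MO mice overlapped the WO mice. The decrease of *Fdps* from MY to MO was 1.62-fold (log2 -0.70, FDR 0.0169), and without 1 of MY1, MY2 and MY3 the FDR rose to 0.0698 at most. Between WO and MO *Fdps* differed by -0.41, which did not pass (FDR 0.0537) except, among other settings, with batch as a term (FDR 0.00547) and in batch 1 only (FDR 0.0142).

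*Mvd*, the decarboxylase that yields isopentenyl diphosphate, had values of 4.76, 4.57 and 4.70 in WY1 to WY3, 4.52, 4.42 and 4.26 in MY1 to MY3, 3.96, 3.66, 3.72, 4.48 and 4.28 in WO1 to WO5, and 3.47, 3.49, 3.62, 4.10 and 3.69 in MO1 to MO5. MY mice lay above all MO mice, WY mice lay above all WO mice, and WO4 and WO5 stood above the other old mice. *Mvd* fell from MY to MO by 0.73 (FDR 0.00677), while its differences of -0.34 between WO and MO (FDR 0.175) and -0.66 between WY and WO (FDR 0.158) did not pass. With batch as a term both passed (FDR 0.0248 and 0.00806), and in batch 1 only the second did (FDR 0.0178).

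*Ggps1* makes geranylgeranyl diphosphate, the branch of the pathway that leads to prenylated proteins and not to sterols, and was chosen for values in every mouse as the cholesterol arm gene that changed least from MY to MO. Its values were 4.51, 4.44 and 4.37 in MY1 to MY3, 4.35, 4.34, 4.15, 4.20 and 4.21 in MO1 to MO5, 4.17, 4.26, 4.54, 4.44 and 4.25 in WO1 to WO5, and 3.88, 4.40 and 4.34 in WY1 to WY3. MO and MY mice were separated by a narrow gap, WO mice spread over both, and WY1 was the lowest of the 16 mice. *Ggps1* fell from MY to MO by 0.19 (FDR 0.0466), a call that ended without MO3, MO4, MO5, MY1, MY2 and MY3 in turn (FDR up to 0.181), in batch 1 only (FDR 0.152) and with batch as a term.

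The kinases *Mvk* and *Pmvk* and the thiolase gene *Acat2* complete this stretch of the pathway. *Mvk* ran from 3.62 to 4.19 in MO, 4.02 to 4.47 in WO, 4.24 to 4.36 in MY and 4.58 to 4.72 in WY. It was the member with the lowest unadjusted p between WY and MY (-0.35, p 0.000844, limma), where its groups did not overlap and the FDR was 0.398. *Mvk* fell both from MY to MO (-0.44, FDR 0.0308) and from WO to MO (-0.37, FDR 0.0452). The first of these calls was lost without MO2, MO3, MY1, MY2 and MY3 in turn (FDR up to 0.109) and the second without MO1, MO2, MO3, MO5, WO1, WO4 and WO5 (up to 0.107). The smaller decreases of *Pmvk* (-0.23, FDR 0.0418) and *Acat2* (-0.25, FDR 0.0497) from MY to MO were lost without MO2, MO3, MO5, MY1, MY2 and MY3 in turn (FDR up to 0.152) and without MO1, MO2, MO3, MO5, MY1, MY2 and MY3 in turn (up to 0.168), in that order, and that of *Acat2* also with batch as a term.

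In the stretch from squalene to lanosterol, the group means of *Sqle*, *Lss* and *Fdft1* ran from WY, the highest, over MY and WO to MO. *Sqle* encodes squalene monooxygenase, which oxidizes squalene to its epoxide, and its log2 level was 5.81, 5.93 and 5.95 in WY1 to WY3, 5.80, 5.84 and 5.71 in MY1 to MY3, 5.10, 5.21, 5.26, 5.54 and 5.55 in WO1 to WO5, and 4.54, 4.80, 4.73, 5.40 and 4.95 in MO1 to MO5. Every young mouse exceeded every old one, and within the old mice only MO4 among the MO mice reached the WO range. *Sqle* fell 1.87-fold from MY to MO (log2 -0.90, SE 0.167, FDR 0.00585). Its decrease from WO to MO (-0.45, FDR 0.0493) lay at the threshold, and without 1 of MO1, MO2, MO3, MO5, WO2, WO3, WO4 and WO5 the FDR was up to 0.114.

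*Lss*, lanosterol synthase, was at 3.18, 2.91, 2.98, 3.30 and 3.34 in MO1 to MO5, 3.22, 3.30, 3.39, 3.83 and 3.81 in WO1 to WO5, 4.04, 4.02 and 3.89 in MY1 to MY3, and 4.00, 4.08 and 4.03 in WY1 to WY3. WO4 and WO5 were closer to the young mice than to WO1, WO2 and WO3, and MO4 and MO5 overlapped the lower WO mice. From MY to MO *Lss* fell by 0.84 (SE 0.105), with the lowest FDR of the cholesterol arm in that comparison (0.000996). The other differences of *Lss* did not pass, at -0.37 between WO and MO (FDR 0.0723) and -0.53 between WY and WO (FDR 0.157). Both passed with batch as a term (FDR 0.00249 and 0.00202), and the second also in batch 1 only (FDR 0.00867).

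*Fdft1*, squalene synthase, ranged from 5.11 to 5.55 in MO and from 5.54 to 5.68 in MY, where MO4 at 5.55 overlapped the MY mice. It fell by 0.34 (FDR 0.0301), which did not hold without MO2, MO3, MO5, MY1, MY2 and MY3 in turn (FDR up to 0.12).

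From lanosterol to cholesterol, *Cyp51* removes a methyl group of lanosterol, and it was measured at 5.69, 5.80 and 5.73 in WY1 to WY3, 5.68, 5.64 and 5.52 in MY1 to MY3, 5.01, 5.04, 5.17, 5.38 and 5.34 in WO1 to WO5, and 4.25, 4.61, 4.48, 5.21 and 4.72 in MO1 to MO5. The young mice were again above the old mice, and MO4 was inside the WO range with the other MO mice beneath it. *Cyp51* fell from MY to MO by 0.95 (SE 0.184, FDR 0.00689). It also fell from WO to MO (-0.53, FDR 0.0277, but up to 0.0679 without 1 of MO2, MO3, WO4 and WO5). From WY to WO it fell by 0.55 (FDR 0.0411, up to 0.147 without 1 of WO1, WO2, WO3, WO5, WY1, WY2 and WY3).

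*Sc5d*, sterol C5-desaturase, had levels of 6.04, 5.98 and 5.99 in MY1 to MY3, 4.96, 5.14, 5.02, 5.56 and 5.14 in MO1 to MO5, 5.45, 5.42, 5.65, 5.88 and 5.77 in WO1 to WO5, and 5.98, 6.18 and 6.14 in WY1 to WY3. MO4 lay above WO1 and WO2, the other MO mice were below all WO mice, and young and old mice did not overlap. *Sc5d* fell from MY to MO by 0.84 (FDR 0.00197) and from WO to MO by 0.47 (FDR 0.0162).

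*Dhcr7* encodes the reductase of 7-dehydrocholesterol, a last step to cholesterol, and gave 4.71, 4.72 and 4.64 in WY1 to WY3, 4.67, 4.59 and 4.62 in MY1 to MY3, 4.23, 4.05, 4.03, 4.50 and 4.56 in WO1 to WO5, and 3.40, 3.53, 3.77, 4.20 and 3.77 in MO1 to MO5. Young mice were tightly grouped above the old ones, and MO4 stood above WO2 and WO3. *Dhcr7* fell by 0.89 from MY to MO (FDR 0.00472) and by 0.54 from WO to MO (FDR 0.0251), the second with an FDR of up to 0.0638 without 1 of MO1, MO2, WO4 and WO5.

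*Tm7sf2*, *Nsdhl*, *Hsd17b7* and *Ebp*, which encode further enzymes of this stretch, had smaller differences. *Tm7sf2* fell in both end-stage comparisons, by 0.53 from MY (FDR 0.00517) and by 0.31 from WO (FDR 0.0375), the latter with an FDR of up to 0.0866 without 1 of MO1, MO2, MO3, WO1, WO2, WO4 and WO5. *Nsdhl* ran from 3.76 to 4.47 in MO and 4.49 to 4.52 in MY and fell by 0.50 (FDR 0.031, up to 0.0994 without 1 of MO2, MO3, MO5, MY1, MY2 and MY3). *Hsd17b7* fell by 0.53 (FDR 0.0173), not without either of MY1 and MY2 (FDR up to 0.0763). *Ebp*, at 3.69 to 4.19 in MO and 4.17 to 4.20 in MY, was the 1 cholesterol arm gene whose difference from MY to MO missed the threshold (-0.30, FDR 0.0588, but 0.00228 in batch 1 only and 0.00436 without MO4).

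The sterol regulators were lower at the end stage as well. *Srebf2*, the gene of the SREBP factor best known for sterol synthesis, was at 4.84, 4.92, 5.11, 5.13 and 5.19 in MO1 to MO5, 5.33, 5.40, 5.43, 5.58 and 5.53 in WO1 to WO5, 5.47, 5.44 and 5.43 in MY1 to MY3, and 5.28, 5.57 and 5.64 in WY1 to WY3. All 5 MO mice were the lowest of the 16 mice, and the WO mice overlapped the young mice. *Srebf2* fell by 0.41 from MY to MO (SE 0.0816, FDR 0.00785) and by 0.42 from WO to MO (SE 0.0747, FDR 0.00205), whereas the WY vs. WO difference was -0.04 (FDR 0.91). That last difference includes WY1, the lowest young mouse at 5.28, without which the WY mean would be higher.

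*Insig1*, whose product holds SREBP precursors in the endoplasmic reticulum, was measured at 6.30, 6.29 and 6.24 in WY1 to WY3, 6.25, 6.18 and 6.11 in MY1 to MY3, 5.92, 5.93, 6.02, 6.17 and 6.27 in WO1 to WO5, and 5.73, 5.50, 5.47, 5.99 and 5.57 in MO1 to MO5. MO mice lay below all young mice, and MO4 alone lay above WO1 and WO2. *Insig1* fell from WO to MO by 0.41 (FDR 0.0158) and from MY to MO by 0.52 (FDR 0.0113, but 0.0548 without MY1).

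*Stard4*, a carrier of cholesterol between membranes, had values of 3.81, 3.68 and 3.63 in MY1 to MY3, 3.02, 2.83, 2.87, 3.32 and 2.92 in MO1 to MO5, 3.17, 3.37, 3.59, 3.67 and 3.56 in WO1 to WO5, and 3.06, 3.82 and 3.75 in WY1 to WY3. WY1 was far under WY2 and WY3, all MO mice were under all MY mice, and MO4 overlapped WO1. *Stard4* fell from MY to MO by 0.71 (FDR 0.0023) and from WO to MO by 0.48 (FDR 0.00905), with -0.07 between WY and WO (FDR 0.929). That last difference includes the low WY1, without which the WY mean would be higher.

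In the fatty acid arm the genes went different ways. *Acly*, ATP citrate lyase, supplies cytosolic acetyl-CoA to both arms, and its level was 6.664, 7.037 and 6.998 in WY1 to WY3, 6.999, 6.992 and 7.003 in MY1 to MY3, 7.012, 6.933, 6.996, 7.029 and 7.074 in WO1 to WO5, and 6.514, 6.574, 6.432, 6.638 and 6.579 in MO1 to MO5. The 5 MO mice and WY1 were low, the 5 MO mice lowest, and the 10 other mice lay close together. *Acly* fell by 0.45 from MY to MO (SE 0.0499, FDR 0.000622) and by 0.46 from WO to MO (SE 0.0446, FDR 5.05e-05), the lowest FDR of any member. With no decrease from WY to WO (0.11, FDR 0.657), its change with age differed between genotypes by -0.56 (95% interval -0.77 to -0.35, FDR 0.00153). The first difference includes the low WY1. With 1 mouse left out in turn the second ran from -0.63 to -0.44 (FDR up to 0.00569).

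*Fasn*, fatty acid synthase, was at 5.26, 5.06, 5.26, 5.18 and 5.37 in MO1 to MO5, 5.30, 5.41, 5.44, 5.65 and 5.56 in WO1 to WO5, 5.58, 5.61 and 5.56 in MY1 to MY3, and 5.40, 5.65 and 5.65 in WY1 to WY3. MY mice stood above all MO mice, and among old mice MO5 alone passed the lowest WO mouse. *Fasn* fell by 0.36 from MY to MO (FDR 0.00574). From WO to MO it fell by 0.24 (FDR 0.0322), with an FDR of up to 0.0794 without 1 of MO2, MO3, MO4, WO4 and WO5 and of 0.156 in batch 1 only. *Acaca*, acetyl-CoA carboxylase, was at 5.20 in MO1 and between 4.31 and 4.59 in the other MO mice, against 4.43 to 4.56 in MY and 4.31 to 4.60 in WO. It did not pass in any comparison (FDR 0.891 from MY to MO and 0.61 from WO to MO).

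Of the genes for elongation and desaturation, *Scd2* and *Scd1* were the most abundant of the fatty acid arm. *Scd1*, a stearoyl-CoA desaturase, was at 7.40, 7.43 and 7.32 in MY1 to MY3, 6.81, 6.73, 6.62, 6.96 and 6.73 in MO1 to MO5, 7.06, 7.20, 7.22, 7.42 and 7.52 in WO1 to WO5, and 7.59, 7.57 and 7.41 in WY1 to WY3. The 5 MO mice were the lowest of all mice, and the WO mice spread from below the MY mice to above them. *Scd1* fell by 0.61 from MY to MO (SE 0.0729, FDR 0.000813) and by 0.51 from WO to MO (SE 0.0915, FDR 0.00203).

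*Scd2*, the desaturase gene known as the main one of mouse brain, was at 9.64, 9.73 and 9.72 in WY1 to WY3, 9.68, 9.65 and 9.62 in MY1 to MY3, 9.33, 9.42, 9.47, 9.63 and 9.60 in WO1 to WO5, and 9.17, 9.14, 9.12, 9.35 and 9.27 in MO1 to MO5. The MO mice were below all young mice, and MO4 just passed WO1. *Scd2* fell by 0.44 from MY to MO (FDR 0.00131) and by 0.28 from WO to MO (FDR 0.01).

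*Elovl6* encodes an elongase of saturated fatty acids and gave 3.52, 3.61, 3.75, 4.02 and 3.82 in MO1 to MO5, 3.96, 4.07, 4.17, 4.19 and 4.19 in WO1 to WO5, 4.46, 4.27 and 4.33 in MY1 to MY3, and 4.29, 4.48 and 4.39 in WY1 to WY3. Young mice were above old mice without overlap, and MO4 was above WO1. *Elovl6* fell by 0.61 from MY to MO (FDR 0.00461) and by 0.37 from WO to MO (FDR 0.0102).

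The desaturases of polyunsaturated fatty acids did not follow. *Fads1* ran from 6.25 to 6.42 in MO and from 6.36 to 6.47 in MY (-0.11, FDR 0.18). *Fads2* ran from 6.02 to 6.23 in MO and from 6.14 to 6.26 in MY (-0.05, FDR 0.614). *Acsl3*, which activates fatty acids, spread over 5.94 to 6.58 in MO, with MO1 highest, and differed from MY by -0.17 (FDR 0.407). None of *Fads1*, *Fads2* and *Acsl3* passed in any comparison by limma with all mice. Without MO1, *Acsl3* fell from MY to MO by 0.27 (FDR 0.0468) and from WO to MO by 0.21 (FDR 0.0498).

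*Srebf1*, the gene of the SREBP factor best known for fatty acid synthesis, was the only member that rose, and stood at 4.29, 4.37 and 4.48 in WY1 to WY3, 4.26, 4.38 and 4.27 in MY1 to MY3, 4.54, 4.60, 4.63, 4.76 and 4.65 in WO1 to WO5, and 5.13, 5.03, 5.17, 4.54 and 4.93 in MO1 to MO5. MO1, MO2, MO3 and MO5 were above all other mice, MO4 was level with the lowest WO mouse, and the WO mice were above the WY mice. *Srebf1* rose by 0.66 from MY to MO (1.58-fold, SE 0.132, FDR 0.00826). Its rise from WO to MO (0.33, FDR 0.043) lay near the threshold, and leaving out any 1 of MO1, MO2, MO3, MO5, WO1, WO2, WO3, WO4 and WO5 gave an FDR of up to 0.0968. Within batch 1 the WO to MO difference of *Srebf1* was 0.52, and within batch 2, which holds MO4, it was 0.04.

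*Lpin1*, a phosphatidate phosphatase that also acts on transcription, was the fatty acid arm gene with the smallest change from MY to MO, at 4.46, 4.29 and 4.44 in MY1 to MY3, 4.65, 4.29, 4.39, 4.28 and 4.42 in MO1 to MO5, 4.54, 4.54, 4.53, 4.49 and 4.54 in WO1 to WO5, and 4.14, 4.42 and 4.36 in WY1 to WY3. The WO mice lay in a narrow band above the WY mice, and the MO mice scattered on both sides of it. *Lpin1* differed by 0.01 from MY to MO (FDR 0.968) and by -0.12 from WO to MO (FDR 0.194). When MO1 was left out, the second difference passed at -0.18 (FDR 0.00699), as did the interaction at -0.27 (FDR 0.0406).

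**Figure D1:**
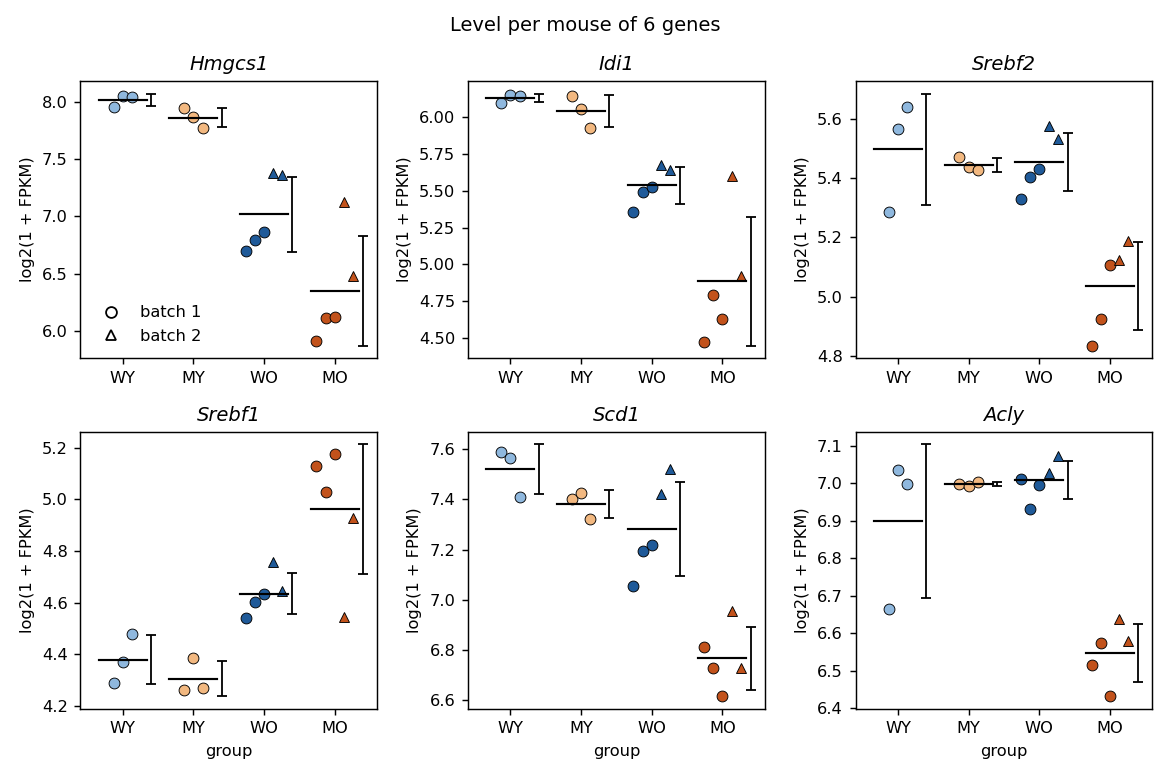
Level of 6 genes as log2(1 + FPKM) per mouse and group, with circles for batch 1, triangles for batch 2, a line for the group mean and a bar for 1 SD to either side. *Srebf2*, *Scd1* and *Acly* are lower in all 5 MO mice than in every other mouse, *Srebf1* is higher in 4 MO mice, and MO4 lies apart from the other MO mice in *Hmgcs1*, *Idi1* and *Srebf1*.

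Counted together, 20 of the 21 cholesterol arm genes fell from MY to MO and none rose, where 12.5% of all genes fell and 13.1% rose. The median log2 fold change of the arm was -0.53, against 0.00 over all genes. In 18 cholesterol arm genes every MO mouse was below every MY mouse, which was so in 15.9% of all genes. A fold change of at least 1.5 was also met by 10 decreases (*Hmgcs1*, *Sqle*, *Fdps*, *Lss*, *Cyp51*, *Dhcr7*, *Idi1*, *Mvd*, *Sc5d* and *Stard4*), against 0.787% of all genes for decreases and 4.11% for increases of that size. In the fatty acid arm, 5 of 11 genes fell (*Acly*, *Fasn*, *Scd1*, *Scd2* and *Elovl6*), 1 rose (*Srebf1*) and 5 did not pass, with a median of -0.17. Of these, *Scd1*, *Elovl6* and *Srebf1* changed at least 1.5-fold. The cholesterol arm count was 11 without MY1, 12 without MY2 and 13 without MY3, where the share of all genes that passed fell as well, from 25.6% to 14.2%, 16.9% and 14.7%. That of the fatty acid arm was 6 or 7 whichever mouse was left out. Without MO5 the counts were 15 and 6 (23.7% of all genes).

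From WO to MO, 10 of 21 cholesterol arm genes fell (*Srebf2*, *Stard4*, *Insig1*, *Sc5d*, *Idi1*, *Dhcr7*, *Cyp51*, *Tm7sf2*, *Mvk* and *Sqle*), where 12.9% of all genes fell and 15.0% rose. The median of the arm was -0.37, all 21 fold changes were negative (49.8% of all genes), and 15 genes had an unadjusted p under 0.05 by limma (38.5% of all genes). Only *Idi1* fell at least 1.5-fold, a size of decrease found in 0.517% of all genes, and only *Srebf2* had WO and MO mice that did not overlap, against 8.65% of all genes for decreases. In the fatty acid arm, *Acly*, *Scd1*, *Scd2*, *Elovl6* and *Fasn* fell and *Srebf1* rose, with a median of -0.12 and none at 1.5-fold. The cholesterol arm count was 5 without MO2, MO3, WO4 or WO5, 6 without MO1 and 15 without MO4, and the fatty acid arm count lay between 4 and 7. Of all genes 22.1% to 28.3% passed without 1 mouse, against 27.9% with all. With batch as a term 16 cholesterol arm genes passed (27.1% of all genes), and in batch 1 only 14 did (14.4%). Without MO5 the counts of the arms were 8 and 5.

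With age in controls, from WY to WO, 3 cholesterol arm genes fell (*Hmgcs1*, *Cyp51* and *Idi1*), beside 0.892% of all genes that fell and 0.231% that rose. *Hmgcs1* and *Idi1* fell at least 1.5-fold, as did 0.204% of all genes. Although few genes passed, 18 of the 21 had an unadjusted p under 0.05 by limma (13.5% of all genes), in 17 every WO mouse was below every WY mouse (5.86% of all genes), and the median was -0.39. No fatty acid arm gene passed, 4 had an unadjusted p under 0.05 by limma, and the median was -0.11. All 3 calls of the cholesterol arm were lost without any 1 WY mouse (0 calls), and 1 call was left without WO1, WO2 or WO3. Calls over all genes were lost likewise, from 204 to 40, 69 and 9 without WY1, WY2 and WY3, and to 63, 55 and 59 without WO1, WO2 and WO3. The cholesterol arm count was 11 in batch 1 only (188 calls over all genes) and 14 with batch as a term (294 calls). *Sqle*, *Lss* and *Mvd* were among them both times, and the fatty acid arm count stayed at 0. In controls both settings set apart WO4 and WO5, the only mice 294 days old, so age and batch change together.

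Before symptoms, from WY to MY, limma called 0 members, where 0.00550% of all genes passed in either direction. At an unadjusted p under 0.05 there were 7 cholesterol arm genes and 1 fatty acid arm gene, *Fads1* (-0.12), against 7.16% of all genes. The medians were -0.11 in the cholesterol arm and -0.04 in the fatty acid arm.

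The change with age differed between genotypes, by the interaction test, in 0 cholesterol arm genes and in 1 fatty acid arm gene, *Acly*, where 7.19% of all genes passed with a negative and 10.5% with a positive difference. At an unadjusted p under 0.05 by limma there were 4 cholesterol arm genes and 6 fatty acid arm genes, against 31.1% of all genes, and the medians were -0.31 and -0.21. Among the cholesterol arm genes nearest to the threshold were *Srebf2* (-0.37, FDR 0.0591) and *Stard4* (-0.64, FDR 0.066). Without MO4, 7 cholesterol arm genes (*Hmgcs1*, *Cyp51*, *Dhcr7*, *Idi1*, *Sc5d*, *Insig1* and *Stard4*) and 4 fatty acid arm genes passed (17.6% of all genes, against 17.7% with all mice), without WO1 there were 2 and 3 (17.7%), without MO1 the fatty acid arm had 2 (19.8%), and without MO5, WY2 or WY3 the cholesterol arm had 1 (17.1%, 21.7% and 15.1%). In the mice of batch 1 alone, *Hmgcs1*, *Sqle*, *Cyp51*, *Dhcr7*, *Idi1* and *Sc5d* passed in the cholesterol arm (12.4% of all genes), and with batch as a term *Hmgcs1*, *Lss*, *Dhcr7*, *Sc5d* and *Srebf2* did (17.5%).

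**Figure D2:**
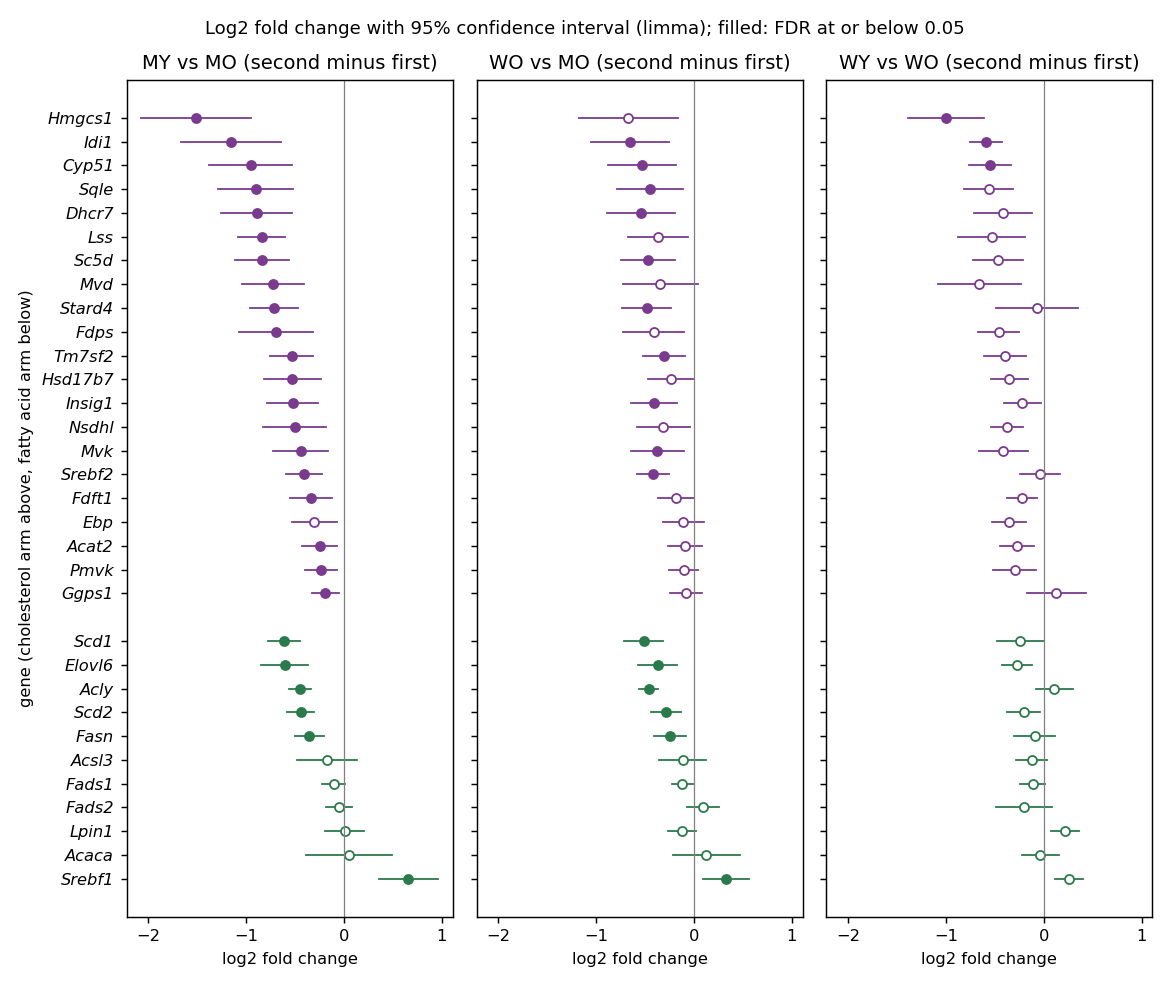
Log2 fold change of each of the 32 genes with its 95% interval by limma from MY to MO, WO to MO and WY to WO, cholesterol arm above and fatty acid arm below, with filled points at an FDR at or below 0.05. From MY to MO the cholesterol arm lies left of 0 throughout, from -1.51 (*Hmgcs1*) to -0.19 (*Ggps1*), while the fatty acid arm runs from -0.61 (*Scd1*) to 0.66 (*Srebf1*).

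The contrast between the arms was also read in each mouse, as the mean over an arm's genes of the log2 value minus that gene's mean over the 16 mice. The cholesterol arm level was 0.335, 0.390 and 0.396 in WY1 to WY3, 0.318, 0.282 and 0.207 in MY1 to MY3, -0.123, -0.165, -0.0882, 0.168 and 0.141 in WO1 to WO5, and -0.563, -0.480, -0.473, -0.0176 and -0.329 in MO1 to MO5. Young mice of both genotypes were high, WO4 and WO5 came close to MY3, and MO4 was the only MO mouse above WO1, WO2 and WO3. The fatty acid arm level was -0.0201, 0.175 and 0.121 in WY1 to WY3, 0.0923, 0.0767 and 0.0280 in MY1 to MY3, -0.0848, -0.0184, 0.00180, 0.140 and 0.108 in WO1 to WO5, and -0.0281, -0.150, -0.175, -0.146 and -0.120 in MO1 to MO5. All 5 MO mice were below all 3 MY mice here too, in a much smaller range, and MO1, the lowest mouse of the cholesterol arm, was the highest MO mouse of the fatty acid arm. Group means (SD) of the cholesterol arm were 0.374 (0.034), 0.269 (0.057), -0.013 (0.156) and -0.372 (0.215) in WY, MY, WO and MO. Those of the fatty acid arm were 0.092 (0.101), 0.066 (0.034), 0.029 (0.093) and -0.124 (0.057). From the controls' young to old mice the cholesterol arm thus moved by more than the spread within either group, whereas the fatty acid arm moved by less. The fatty acid arm's mean in WY includes the low WY1 (-0.0201, against 0.175 and 0.121 in WY2 and WY3). Without WY1 that mean would be higher and the move to WO larger, so this contrast of the arms depends on 1 mouse. The arm levels were not tested, since the genes were chosen with results of these data known.

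**Figure D3:**
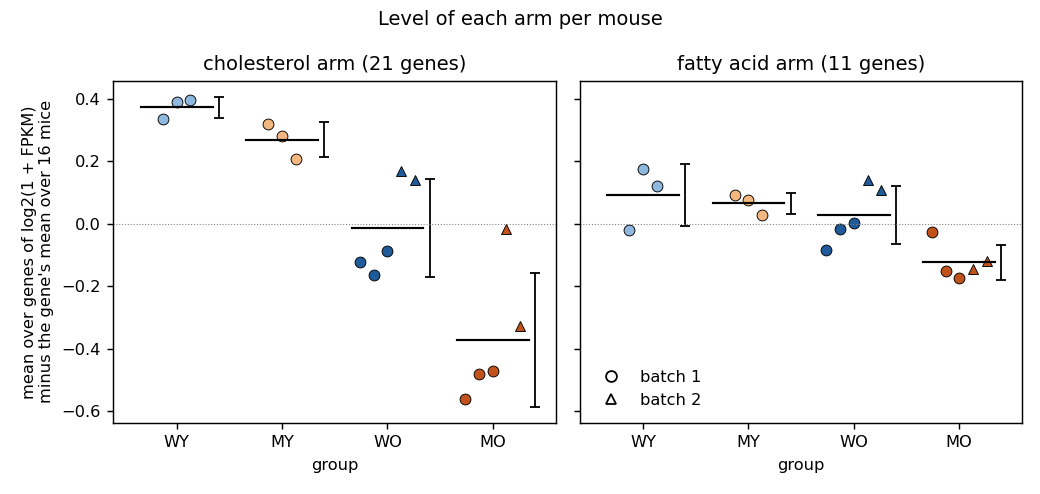
Mean over the genes of each arm of log2(1 + FPKM) minus the gene's mean over 16 mice, per mouse and group, with circles for batch 1, triangles for batch 2, a line for the group mean and a bar for 1 SD to either side. The cholesterol arm goes from 0.374 in WY to -0.372 in MO with WO between them, and the fatty acid arm from 0.092 to -0.124.

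Batches were compared within the old groups. Within batch 1 the median difference of the cholesterol arm was -0.68 from MY to MO, -0.39 from WO to MO and -0.49 from WY to WO, and that of the fatty acid arm was -0.11, -0.09 and -0.18. Within batch 2, where only WO and MO can be compared, the medians were -0.38 and -0.27. From WO to MO all 21 cholesterol arm genes and 9 of the 11 fatty acid arm genes had the same sign in both batches. In corrected values the batch means over all mice differed by at most 0.122 in any member, although batch 1 held young and old mice and batch 2 old mice only. Within WO, all 21 cholesterol arm genes were higher in batch 2 (median difference 0.244), and within MO 20 were (median 0.316), whereas over all genes the medians were 0 and -0.001. Those of the fatty acid arm were 0.149 within WO and 0.048 within MO. The age of WO4 and WO5 and their batch cannot be told apart.

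Other genes of the same pathways were counted from further lists. Of 3 further sterol synthesis genes, 1 fell from MY to MO, where 12.5% of all genes fell. *Msmo1*, a methyl sterol oxidase, fell by 0.85 (FDR 0.0268, up to 0.0964 without 1 of MO2, MO3, MY1, MY2 and MY3). In controls with age it fell by 0.63 (FDR 0.0129, up to 0.079 without WY1 or WY3), which did not pass with all 4 groups in 1 fit.

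Over all genes, 12.5% fell and 13.1% rose from MY to MO, and 12.9% fell and 15.0% rose from WO to MO. Of 9 genes for sterol uptake, sensing and SREBP processing, 2 fell and 2 rose from MY to MO. From WO to MO, 1 of the 9 fell and 2 rose. Counts this small were not read as a result for the list. *Npc2*, a lysosomal sterol carrier, rose by 0.78 from WO to MO (FDR 2.41e-05). *Scap*, *Mbtps1*, *Mbtps2* and *Insig2*, whose products process or retain SREBP, did not pass in these comparisons. Of 13 further genes of fatty acid synthesis and activation, 6 fell and 1 rose from MY to MO, and 5 fell and 1 rose from WO to MO. The decreases included *Acss2*, acetyl-CoA synthetase (-0.75, FDR 0.000579), and *Elovl7*, an elongase (-0.83, FDR 0.00199), both from MY to MO.

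LXR is the oxysterol receptor that is known to induce *Srebf1*. Of 8 genes of LXR and its targets, 5 rose from MY to MO and 4 from WO to MO, and none fell. Of all genes, 13.1% and 15.0% rose in these comparisons. *Nr1h2*, *Rxra* and *Abcg1* passed in neither, with *Abcg1* means of 3.924 in MY, 4.006 in WO and 4.034 in MO. Genes of either arm were left out of this list, and of those *Srebf1* rose while *Scd1* and *Fasn* fell in both comparisons. *Abca1*, a cholesterol exporter, was at 2.54, 2.59 and 2.54 in MY1 to MY3, 2.62, 2.98, 2.76, 2.67 and 2.36 in WO1 to WO5 and 4.30, 4.18, 4.23, 3.33 and 3.94 in MO1 to MO5. MO mice were above all others, with MO4 the lowest of them. *Abca1* rose by 1.44 from MY (FDR 0.0017) and by 1.32 from WO (FDR 0.000401). *Mylip*, the gene of a ubiquitin ligase, rose by 0.69 and 0.73 (FDR 0.00935 and 0.000859), and *Mlxipl*, the gene of the carbohydrate-responsive factor ChREBP, by 0.68 and 0.59 (FDR 0.0054 and 0.00533, the second not in batch 1 only). *Lpcat3*, an acyltransferase of phospholipids, rose by 0.41 and 0.53 (FDR 0.001 and 2.33e-05).

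Of 6 genes for the sphingolipids and other lipids of myelin, 5 fell from MY to MO, 2 from WO to MO and 3 from WY to WO. Of all genes, 12.5%, 12.9% and 0.892% fell in these comparisons, in the same order. *Ugt8a*, which makes galactosylceramide, was at 7.55, 7.43 and 7.36 in MY1 to MY3, 6.45, 6.57, 6.72, 6.95 and 6.75 in WO1 to WO5 and 5.06, 5.81, 5.78, 6.76 and 6.14 in MO1 to MO5. Here too MO4 was the one MO mouse within the WO range. *Ugt8a* fell by 1.53 from MY to MO (FDR 0.00876), by 0.78 from WO to MO (FDR 0.0436, up to 0.0957 without 1 of MO1, MO2, MO3, MO5, WO1, WO2, WO3, WO4 and WO5) and by 0.87 from WY to WO (FDR 0.0129, up to 0.079 without WY2 or WY3), the last not with all 4 groups in 1 fit. *Fa2h*, fatty acid 2-hydroxylase, fell by 1.13 (FDR 0.00233) and *Gal3st1*, the sulfotransferase that makes sulfatide, by 0.89 (FDR 0.0398, up to 0.117 without 1 of MO2, MO3, MY1, MY2 and MY3) from MY to MO.

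Markers of cell types were read beside these genes. Over all genes, 12.5% fell and 13.1% rose from MY to MO, and 12.9% fell and 15.0% rose from WO to MO. From WY to WO, 0.892% fell and 0.231% rose. These shares stand beside all marker counts that follow. Of 9 oligodendrocyte markers, 3 fell from MY to MO, 6 fell from WY to WO, and 1 fell and 1 rose from WO to MO. Their most abundant gene was *Mbp*, and the summed FPKM was 12410, 10360 and 10890 in WY1 to WY3, 10900, 10680 and 10380 in MY1 to MY3, 8083, 7455, 7339, 2114 and 21090 in WO1 to WO5, and 5994, 6182, 6414, 19850 and 20090 in MO1 to MO5. In batch 2 *Mbp* thus stood far from its level in the batch 1 mice of the same group, in either direction. Without *Mbp*, where *Cnp* was most abundant, the sum was 2781, 2628 and 2701 in WY1 to WY3, 2511, 2510 and 2570 in MY1 to MY3, 1834, 1720, 1859, 2074 and 2025 in WO1 to WO5, and 1423, 1596, 1576, 2129 and 2034 in MO1 to MO5. Young mice were highest, WO4 and WO5 above the other WO mice and MO4 above the other MO mice, as in the cholesterol arm level, but here MO4 exceeded every WO mouse and MO5 every one except WO4.

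Of 7 markers of newly formed oligodendrocytes, 4 fell from MY to MO, and their sum, with *Bcas1* most abundant, lay at 273 to 291 in MY, 232 to 257 in WO and 163 to 249 in MO. From WO to MO, however, 2 of the 7 rose and 1 fell, with a median of 0.12. The 3 precursor markers, *Ptprz1* the most abundant, gave 0 calls from MY to MO by limma (0 at an unadjusted p under 0.05), with sums of 36.5 to 37.1 in MY and 33.1 to 37.4 in MO. Microglia markers rose in 6 of 7 genes in both end-stage comparisons, with sums (*Csf1r* most abundant) of 178 to 288 in MO against 80.5 to 86.7 in MY and 68.1 to 87.1 in WO. Astrocyte markers rose in 4 of 7 genes from MY to MO and 6 of 7 from WO to MO, with sums (*Gfap* most abundant) of 3400 to 4410 in MO, 2200 to 2250 in MY and 1860 to 2070 in WO. Neuron markers fell in 3 of 5 genes and motor neuron markers in 4 of 5, both from MY to MO and from WO to MO. Their sums were 1810 to 2030 (*Snap25* most abundant) and 42.5 to 53.7 (*Slc5a7* most abundant) in MO, against 2190 to 2280 and 62.3 to 68.0 in MY and 2300 to 2580 and 69.8 to 81.5 in WO. In WY the sums were 2110 to 2160 and 43.9 to 65.6, and the motor neuron sum of WY1, 43.9, lay inside the MO range. The part of these cell types in the results was not tested.

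Tissue that could adhere to the cord was looked for in the same way, against the same shares of all genes. *Adipoq*, *Plin1* and *Retn* of adipocytes, *Prx* and *Pmp2* of Schwann cells and *Acta1*, *Ckm*, *Myh4* and *Tnnt3* of skeletal muscle were under a log2 of 1 in all mice. The summed FPKM was 0.0754 to 1.56 over 4 adipocyte markers (*Fabp4* most abundant, 1 of 4 rose from MY to MO), 1.24 to 2.47 over 3 Schwann cell markers (*Ncmap* most abundant, 1 of 3 fell) and 0.480 to 1.82 over 4 muscle markers (*Acta1* most abundant, 0 of 4 passed by limma, 0 at an unadjusted p under 0.05). *Cidec*, *Lep* and *Cfd* were not analysed here. Meningeal fibroblasts (4 markers, *Dcn* most abundant, sums of 12.9 to 18.4), endothelium (3 markers, *Cldn5* most abundant, 21.6 to 41.7) and blood (3 markers, *Hba-a1* most abundant, 11.7 to 96.8) gave 0 calls from MY to MO by limma, with 0 at an unadjusted p under 0.05. From WO to MO 2 of the 3 endothelial markers and 1 of the 4 muscle markers (*Acta1*, -0.25, FDR 0.0455) fell, 1 of the 4 adipocyte markers rose (*Fabp4*, 0.72, FDR 0.00592), and Schwann cell, fibroblast and blood markers gave 0 calls by limma (0, 0 and 1 at an unadjusted p under 0.05). The lowest blood sum, 11.7, was that of MO1. *Hbb-bs* was at 0.003 in all mice, so it had no differences to test and only the other blood markers could give a call.

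The 32 genes lie on 16 chromosomes of the mouse genome (GRCm38, the build named mm10), 5 of them on chromosome 19 and 4 on chromosome 11. *Scd1* (chr19:44394455-44407879) and *Scd2* (chr19:44293674-44306864) lie close together and are near copies, as *Fads1* (chr19:10182888-10196877) and *Fads2* (chr19:10062765-10101746) also lie close together, and how reads shared by near copies were assigned is not stated. *Hmgcs1* (chr13:119690379-119708260) and *Idi1* (chr13:8885501-8892451) lie on chromosome 13, *Srebf2* (chr15:82147181-82205379) on chromosome 15 and *Srebf1* (chr11:60199089-60222581) on chromosome 11. Exons of 5 members overlap an exon of another gene on the same strand and those of 8 members an exon on the opposite strand. *Fdft1* overlaps *Ctsb* on the opposite strand, and *Ctsb*, a lysosomal protease gene, rose by 1.00 from MY to MO (FDR 0.000357) while *Fdft1* fell. *Cyp51* overlaps *Akap9* on the opposite strand (-0.29, FDR 0.0105) and *Acsl3* overlaps *Utp14b* on the same strand (-0.39, FDR 0.0361). *Lss* overlaps *4930483K19Rik* on the opposite strand (-0.35, FDR 0.00802). The partners *Vps51* of *Tm7sf2*, *Arid4b* of *Ggps1* and *Rai1* of *Srebf1* did not pass from MY to MO. The library kit keeps strand, but whether counting used it is not stated, and its part in these values was not tested.

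Since the cholesterol arm genes moved together, their promoters, taken by RefSeq from 250 bases before to 50 bases after a start, were searched on both strands. Entries were found for 25 of the 32 members, and *Sqle*, *Fdft1*, *Fdps*, *Stard4*, *Scd1*, *Scd2* and *Fads1* had none. This leaves the fatty acid arm, at 8 of 11 genes, too incomplete for a count, and the cholesterol arm at 17 of 21. A gene was counted if any of its promoters held the letters. The letters TCACNCCAC, those of the classical sterol regulatory element, occur in 1.44% of 27025 genes and in 1 cholesterol arm gene, *Hmgcs1*. CACGTG, the palindromic E-box, occurs in 8.09% of genes and in 4 of 17 cholesterol arm genes (*Dhcr7*, in 1 of its 3 promoters, *Hsd17b7*, *Insig1* and *Sc5d*). CCAAT, the box bound by NF-Y, occurs in 41.1% of genes and in 16 of 17 cholesterol arm genes. The motifs share no letters in the 4 promoters shown. These hold the most matches among the members, with ties broken by the FDR from MY to MO, and are written from 5′ to 3′ on the gene's strand with matches on either strand in capitals (GRCm38.p6). The window of *Hmgcs1* is chr13:119690101-119690400 (+), that of *Mvk* chr5:114444019-114444318 (+), that of *Hsd17b7* chr1:169969156-169969455 (-) and that of *Nsdhl* chrX:72918271-72918570 (+).
Hmgcs1: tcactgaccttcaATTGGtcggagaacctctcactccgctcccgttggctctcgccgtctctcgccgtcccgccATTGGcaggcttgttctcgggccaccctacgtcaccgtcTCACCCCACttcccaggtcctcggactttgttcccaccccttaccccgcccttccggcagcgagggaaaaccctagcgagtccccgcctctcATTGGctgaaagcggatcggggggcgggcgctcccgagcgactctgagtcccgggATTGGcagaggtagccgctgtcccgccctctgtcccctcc
Mvk: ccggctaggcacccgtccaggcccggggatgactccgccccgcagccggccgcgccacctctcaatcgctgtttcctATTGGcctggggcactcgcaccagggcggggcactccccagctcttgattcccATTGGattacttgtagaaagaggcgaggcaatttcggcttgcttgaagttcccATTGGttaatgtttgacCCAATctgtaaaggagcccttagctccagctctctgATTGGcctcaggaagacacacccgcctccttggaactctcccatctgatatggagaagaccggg
Hsd17b7: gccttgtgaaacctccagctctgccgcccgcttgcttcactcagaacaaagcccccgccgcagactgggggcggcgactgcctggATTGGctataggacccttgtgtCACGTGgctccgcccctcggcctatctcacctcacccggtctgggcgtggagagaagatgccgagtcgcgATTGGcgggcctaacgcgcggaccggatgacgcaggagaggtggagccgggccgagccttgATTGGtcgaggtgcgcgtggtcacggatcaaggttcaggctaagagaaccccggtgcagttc
Nsdhl: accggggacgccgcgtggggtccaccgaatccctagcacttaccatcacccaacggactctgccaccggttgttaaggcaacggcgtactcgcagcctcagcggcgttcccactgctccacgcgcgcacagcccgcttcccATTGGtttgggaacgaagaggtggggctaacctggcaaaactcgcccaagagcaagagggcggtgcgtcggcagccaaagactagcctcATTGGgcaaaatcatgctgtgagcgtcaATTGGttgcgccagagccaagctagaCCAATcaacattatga
In *Hmgcs1* 1 sterol element lies among 4 CCAAT boxes, *Mvk* has 5 CCAAT boxes, *Hsd17b7* has 1 E-box and 3 CCAAT boxes, and *Nsdhl* has 4 CCAAT boxes. A match of letters is a description of the window and shows no binding.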

How the data were processed

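The authors used Trimmomatic to clean reads, TopHat to align them (mm10) and Cufflinks to compute FPKM. To make the log2 values as deposited, the authors removed genes at 0 in many samples, added 1, took log2 and corrected for 2 batches with parametric ComBat of sva. Tool versions, annotation and the covariates of ComBat are not stated. The table of 18167 genes and 16 mice was used as deposited. That it holds corrected values was seen in its 915 values below 0 and none exactly 0. Where an FPKM is near 1 or under, adding 1 shrinks fold changes.

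In R 4.3.3, limma 3.58.1 with its default settings (functions lmFit and eBayes, two-sided tests) was run on the mice of each pair of groups, with Benjamini-Hochberg adjustment over all 18167 genes, and for the interaction to the 16 mice in 1 fit of 4 group means. A call needed an FDR at or below 0.05, and a stricter one also a fold change of at least 1.5. Correction made before the fit leaves its uncertainty out of the FDR.

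Values in every mouse were given for members with a stricter call in a comparison or a call in the interaction, for *Srebf1*, *Srebf2*, *Insig1*, *Fasn*, *Scd1* and *Scd2*, and for the member of each arm with the smallest change from MY to MO. Genes of further lists were named with a stricter call, and 6 genes of these and the marker lists were left out of results and counts. Others that are named outside this rule were chosen after their values were seen. Members and lists were chosen with earlier results of these data known. Positions were joined by symbol for 32 members from GENCODE on GRCm38, and promoters came from RefSeq (GRCm38.p6). Figures were drawn with Python 3.11.15 and matplotlib 3.10.9.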

Additional observations from a re-analysis of the deposited data

Results flagged for a closer look

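Genes whose change with age differed between genotypes, (MO - MY) - (WO - WY), are given with their FDR by limma over 18167 genes. Among the 32 members only *Acly* passed, at -0.56 (FDR 0.00153), with MO mice lowest and WO mice level with most young mice. Among sterol genes outside the 32, *Npc1*, a lysosomal sterol transporter, was at -0.26 (FDR 0.0058). *Npc2* was at 0.91 (FDR 6.58e-05), as it rose in mutant mice with age while its difference in controls was negative. The decrease in controls (-0.45, FDR 0.0222) was lost without 1 of WO1, WO2, WO3, WO5, WY1 and WY3 (FDR up to 0.106) and in batch 1 only. *Soat1*, which esterifies cholesterol, was at 0.46 (FDR 0.0369, up to 0.0877 without 1 of MO1, MO2, MO3, MY1, MY2, MY3, WO1, WO5, WY2 and WY3). *Acsl1*, which activates fatty acids, was at -0.35 (FDR 0.0407, up to 0.114 without 1 of MO2, MO3, MY1, MY2, MY3, WO3, WO4, WO5, WY1 and WY3). Neither *Soat1* nor *Acsl1* passed in batch 1 only. Of the LXR list, *Abca1* was at 1.34 (FDR 0.00247), *Mylip* at 0.59 (FDR 0.0231, up to 0.0686 without MY3 or WY1) and *Lpcat3* at 0.61 (FDR 8.29e-05).

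In the WO and MO groups, the levels in every mouse of 20 members and of the 2 arms were examined by Dixon's ratio of gap to range. *Lpin1* in WO4 was at 4.49, with the nearest WO mouse at 4.53 and a ratio of 0.789, in a group whose 5 values span little. Of these 44 groups of 5 mice, 1 had such a value, where chance gives about 1 in 20. The most abundant marker of each cell type list and *Cnp*, 14 genes in all, were examined in the same way after the files were seen, and 4 of 28 groups had a ratio above 0.71. They were *Mbp* in WO4 (5.36, nearest 12.4), *Cldn5* in WO4 (3.94, nearest 4.58), *Hba-a1* in MO1 (3.6, nearest 5.42) and *Ptprz1* in MO3 (4.44, nearest 4.56).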

How the results depend on the processing

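For calls of members and named genes, 1750 values were recomputed over 96 pairs of gene and comparison, and 0 called values reversed. From MY to MO, 17 to 21 cholesterol arm genes passed in batch 1 only, with batch as a term, with genes of a mean of at least 1, with all 4 groups in 1 fit, after quantile normalization, with an intensity trend and with log2(FPKM + 0.1), where 22.7% to 30.7% of all genes passed. Some calls of genes named in the report ended with these settings. Adding 0.1 ended those of *Pmvk*, *Acat2*, *Ggps1* and *Gal3st1* from MY to MO, *Sqle*, *Mvk*, *Srebf1* and *Ugt8a* from WO to MO, *Hmgcs1*, *Cyp51* and *Npc2* from WY to WO and *Acsl1* in the interaction. All 4 groups in 1 fit ended those of *Pmvk* and *Ggps1* from MY to MO and of *Cyp51*, *Idi1*, *Msmo1* and *Ugt8a* from WY to WO. Quantile normalization ended those of *Acat2* from MY to MO and of *Hmgcs1* and *Cyp51* from WY to WO. Asking for more than a small change lowered the cholesterol arm count, to 10 with a fold change of at least 1.5 and to 6 with limma's treat against 1.2-fold (*Hmgcs1*, *Lss*, *Dhcr7*, *Idi1*, *Sc5d* and *Stard4*). For the fatty acid arm from MY to MO the same settings gave 3 and 1, for the cholesterol arm from WO to MO 1 and 0, for the fatty acid arm from WO to MO 0 and 1, and for the fatty acid arm in the interaction 0 and 0. Treat left 0 cholesterol arm genes from WY to WO. Over all genes treat left 4.16% from MY to MO, 4.62% from WO to MO, 0.0165% from WY to WO and 3.35% in the interaction.

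Settings for batch moved the comparisons with few calls. With batch as a term, 16 cholesterol arm genes passed from WO to MO, 14 from WY to WO and 5 in the interaction, where the fatty acid arm had 4. In batch 1 only, 11 passed from WY to WO and 6 in the interaction, where the fatty acid arm had 3. Over all genes, WY vs. WO had 204 calls with all mice, 188 in batch 1 only and 294 with batch as a term. From WY to WO the cholesterol arm count was 6 among genes with a mean of at least 1 and 1 with all 4 groups in 1 fit, with quantile normalization or with log2(FPKM + 0.1), where 1.35%, 1.05%, 0.842% and 0.468% of all genes passed. Quantile normalization gave 2 fatty acid arm genes in the interaction, where 19.8% of all genes passed. The median of the fatty acid arm from MY to MO was -0.11 in batch 1 only and with batch as a term, and in the interaction the mean over its members was -0.13. The causes were not tested.

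With 1 mouse left out in turn, the cholesterol arm count ran from 11 to 20 from MY to MO (lowest without MY1), 5 to 15 from WO to MO (lowest without MO2, MO3, WO4 or WO5, highest without MO4), 0 to 3 from WY to WO (0 without any WY mouse) and 0 to 7 in the interaction (highest without MO4). For the fatty acid arm the counts were 6 to 7, 4 to 7, 0 to 0 and 1 to 4 (highest without MO4), and between WY and MY both arms stayed at 0. The median of the cholesterol arm ran from -0.62 to -0.52, -0.45 to -0.32, -0.45 to -0.36, -0.14 to -0.08 and -0.35 to -0.23 from MY to MO, WO to MO, WY to WO, WY to MY and in the interaction. In the same order, that of the fatty acid arm ran from -0.27 (without MO1) to -0.11 (without MO3), -0.21 (without MO1) to -0.12, -0.18 to -0.07, -0.09 to 0.01 and -0.26 to -0.13 (without WY1).

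Mouse numbers were also used as a block, for numbers 1 to 3 where a group has 3 mice. With this block 20 cholesterol and 6 fatty acid arm genes passed from MY to MO, 15 and 5 passed from WO to MO, 6 and 0 from WY to WO, 0 and 0 from WY to MY, and 4 and 2 in the interaction. Of all genes 20.6%, 22.7%, 0.374%, 0.0055% and 11% passed with the block, in the same order. The block ended the calls of *Ggps1* from MY to MO, *Srebf1* from WO to MO, *Npc2* from WY to WO and *Npc1*, *Soat1* and *Acsl1* in the interaction. The correlation over genes of deviations of same-numbered mice from their group means was 0.177, 0.085 and 0.151 in MY and MO. It was 0.04, 0.091, -0.207, -0.079 and 0.029 in WO and MO, and 0.377, -0.129 and 0.189 in WY and WO. In WY and MY it was -0.099, -0.2 and -0.019. The labels do not state that numbers pair the mice, and with so few mice per group these correlations cannot settle it.

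Each group holds 3 to 5 mice. The batch correction was made before the table was deposited and could not be repeated, batch 2 holds old mice only, and age and batch of WO4 and WO5 cannot be told apart. MO5 carries expression of *Xist* against its label. The number of reads behind a gene's value is unknown, and so is how reads of near copies and of overlapping genes were assigned. RNA levels do not measure sterols or fatty acids.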
